A study of Homo sapiens with 6 samples.

Results

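The 554 regions described here were listed as open chromatin in both libraries of a K562 line carrying E669Q SLFN11 and in none of the 4 libraries of the vector and wild-type SLFN11 lines. They were chosen by the deposited ATAC-seq peak lists themselves. Overlapping intervals of all 6 lists on the 22 autosomes were merged into 16888 regions, and a region was kept when it held an interval of both E669Q lists and of no other. The E669Q-only regions made up 3.28% of all merged regions (95% Clopper-Pearson interval 3.02 to 3.56) and 8.47% (7.80 to 9.17) of the 6542 regions listed in both E669Q libraries. Their number, and their absence from the other lists, are what the choice fixed and are given as a description without a test.

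ATAC-seq uses a transposase that cuts and tags accessible DNA, so sequenced fragments pile up at promoters, enhancers and other open sites. SLFN11, a member of the Schlafen family, is recruited to stressed replication forks and blocks replication there. The E669Q substitution changes a residue of the domain that hydrolyses ATP. The drug camptothecin (CPT) holds topoisomerase I on the DNA it has cut, which disturbs passing forks. K562 is an established human leukaemia line with an abnormal, rearranged set of chromosomes.

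The series compared 3 modified K562 lines, which carried the empty vector, overexpressed SLFN11 in its wild-type form, or overexpressed the E669Q form. Each line was given DMSO, or CPT at 1000 nM for 4 h, which gave 6 groups of 1 library each. A difference between groups therefore has no replicate check, and a line effect cannot be told apart from an effect of its individual libraries. The sources used here do not say whether a line was 1 clone or a pool, and neither the K562 identity nor the transgene could be checked, because no annotation of the hg19 build was used here.

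Depth differed between the libraries and bears on every statement about a region missing from a list. Relative depth was recovered from the deposited fold enrichments and p-values. For the DMSO libraries it was 1.00 (vector), 1.72 (wild-type SLFN11) and 1.33 (E669Q), and for the CPT libraries 1.09, 1.09 and 2.22. In the same order the lists held 5091, 11242 and 8114 autosomal intervals with DMSO and 5651, 5397 and 11950 with CPT. The 2 E669Q libraries were thus the deepest and the third deepest of the 6. All intervals quoted below are 95% intervals that cover counting error only and treat regions as independent.

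Most regions open in both E669Q libraries were also listed elsewhere. Of the 6542, 2095 were in all 6 lists, 1547 were in 3 of the other 4 lists, 1329 in 2 and 1017 in 1. The last group lies just outside the choice, and 784 of its 1017 regions were shared with wild-type SLFN11 given DMSO, against 69 with vector DMSO, 79 with vector CPT and 85 with wild-type SLFN11 CPT. The library that most often kept a region out of the E669Q-only set was therefore the second deepest one. Without that library the set would have held 1332 regions, while leaving out any of the other 3 gave 623 to 637.

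The same choice made for the other lines gave fewer regions. Both wild-type SLFN11 libraries, and no other, held 138 regions, which was 3.00% of the 4595 regions listed in both. Both vector libraries alone held 20 regions, 0.63% of 3168. Among all 15 pairs of libraries, the E669Q pair ranked second. The pair of E669Q with CPT and wild-type SLFN11 with DMSO, which joins different lines and treatments but is the deepest pair, held more, at 895 regions or 11.5% of the 7813 it shared. Across the 15 pairs the number of regions in a pair alone went with the product of the 2 depths (Spearman rho = 0.875, n = 15 pairs that share libraries, given as a description).

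**Figure D1:**
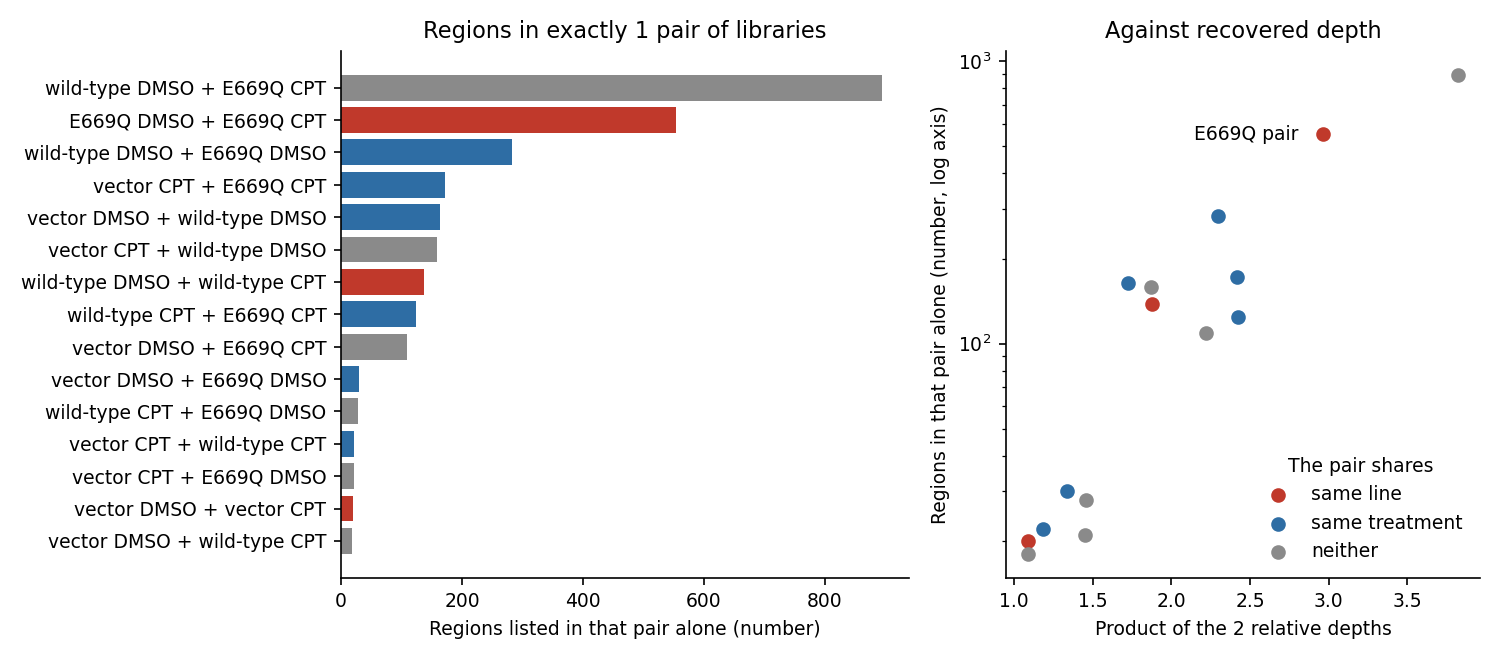
Merged autosomal regions listed in 1 pair of libraries and in no other, for all 15 pairs, as bars (left) and against the product of the 2 relative depths (right, log vertical axis). Red marks pairs of the same line, blue pairs of the same treatment and grey neither. The E669Q pair holds 554 regions, fewer than the 895 of the deepest pair, and the wild-type SLFN11 and vector pairs hold 138 and 20.

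When every list was shortened to its 5091 strongest intervals, the order changed. The E669Q pair then held 206 regions and ranked first, with 168 in the vector pair, 149 in vector CPT with wild-type SLFN11 DMSO, and 148 in the wild-type SLFN11 pair. Of the 206 regions, 113 were among the 554. At equal list length the E669Q and vector pairs were thus close in number.

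The E669Q-only regions were weak among the regions of their own libraries. Their median fold enrichment, the authors' ratio of summit pileup to local background, was 5.65 (5.53 to 5.74) with DMSO and 5.80 (5.62 to 5.95) with CPT. In the 5988 regions listed in both E669Q libraries and at least 1 other, it was 6.37 (6.33 to 6.42) and 6.80 (6.75 to 6.86). The summit pileup, the number of fragments over the summit, had a median of 8 with DMSO and 10 with CPT in the E669Q-only regions, against 10 and 15 in the shared ones. Fold and pileup were those of a library's strongest entry in the region, by −log10 p. A pileup of 8 fragments carries an exact Poisson interval of 3.45 to 15.8, and one of 10 an interval of 4.80 to 18.4. Single regions were thus measured imprecisely, and only differences over many regions stand out from counting error.

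They were also narrower and simpler. Width was the span from the first to the last base of a library's intervals in a region, gaps included. Its median was 203 bp with DMSO and 223 bp with CPT, against 315 and 383 bp in the shared regions. More than 1 entry in a list was found for 35 of the 554 (6.32%), compared with 2136 of 5988 (35.7%) of the shared regions. Regions under 150 bp numbered 14 (2.53%), against 12 (0.20%) of the shared regions. The 784 regions whose only further list was wild-type SLFN11 DMSO lay between the 2 sets. Their median spans were 231 bp with DMSO and 271 bp with CPT. More than 1 entry was found for 107 of them (13.6%), and 2 (0.26%) were under 150 bp. Intervals of further lists can join separate E669Q intervals into the same shared region, which raises its span and its entries. The part of this joining in the contrast was not tested. The choice of regions also used these intervals, so the contrast is a description.

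The closest comparison is with the 784 regions just outside the choice, which wild-type SLFN11 with DMSO also held. Their median folds were 5.75 with DMSO and 5.92 with CPT, and their median pileups 8 and 11 fragments. The fold intervals of both groups overlapped (5.67 to 5.87 against 5.53 to 5.74 with DMSO). By strength the E669Q-only regions thus lay close to regions that 1 further deep library also held.

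The choice limited the distance between the summits of the 2 E669Q libraries, since their intervals had to overlap. The median distance between the 2 summits was 62 bp, with a range of 0 to 386 bp, in merged regions of median width 293 bp. In the shared regions it was 66 bp, at a median merged width of 532.5 bp. Of the 554 pairs, 233 (42.1%) lay within 50 bp, against 41.3% of the shared regions. The folds of the 2 libraries were weakly related across the E669Q-only regions (Spearman rho = 0.296, n = 554, a description across regions of 2 libraries), and more so across the regions of all 6 lists (0.460, n = 2095).

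At the same signal per unit of depth, some of these regions would reach the weakest entries of the other lists and others would not. Each pileup and background of an E669Q library was scaled to the depth of another library, and the resulting −log10 p was compared with the lowest one in that library's list. From the E669Q DMSO values, 424 of 554 (76.5%) reached that level in vector DMSO, 463 (83.6%) in vector CPT, 463 (83.6%) in wild-type SLFN11 CPT and all 554 in wild-type SLFN11 DMSO. From the E669Q CPT values the counts were 225 (40.6%), 262 (47.3%), 260 (46.9%) and 497 (89.7%). In 190 regions (34.3%, 30.3 to 38.4) both E669Q libraries reached the level of all 4 other lists. In the others, at least 1 scaled value fell short of at least 1 list. The count of 554 was fixed in advance, because wild-type SLFN11 DMSO was 1.29 times as deep as E669Q DMSO. Its lowest −log10 p was also lower, at 4.935 against 5.094, and all 5963 shared regions with a recovered pileup reached it too. The scaled values are those by which the regions were listed in E669Q, so the choice raises all these counts.

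Reaching the level did not always mean being listed. Among the regions of both E669Q lists and at least 1 other that reached it from the DMSO values, 60.1% were listed in vector DMSO, 64.3% in vector CPT, 94.5% in wild-type SLFN11 DMSO and 64.8% in wild-type SLFN11 CPT. The choice of regions with at least 1 other list raises these shares. Absence from a list is therefore not absence of accessible chromatin, and the set is called E669Q-only for its listing alone.

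The 10 strongest regions of at least 150 bp, ranked by the lower of their 2 folds, had folds from 8.20 upward in both libraries. The first was chr11:40141264-40141562, with a fold of 9.44 and 12 fragments with DMSO and a fold of 9.29 and 17 fragments with CPT. The second, chr1:164681468-164681983, had folds of 8.98 and 9.80 over 16 and 24 fragments. The third, chr2:78204599-78204981, had folds of 9.88 and 8.73 over 16 and 18 fragments. A further region on the same chromosome, chr2:78768970-78769355, had folds of 8.45 and 10.36 over 15 and 27 fragments and ranked seventh. These 4 lay between 22285 and 586656 bp from the nearest interval of any other list.

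Chromosomes 4 and 11 each held 2 of these 10. On chromosome 4, chr4:133090787-133091247 had folds of 8.84 with DMSO and 8.57 with CPT, and chr4:90810270-90810728 had 9.56 and 8.50 over 13 fragments in each library. The latter lay 766910 bp from any interval of another list. On chromosome 11, chr11:122626160-122626582 had folds of 8.20 and 9.40. The remaining 3 were chr5:150284357-150284850 (folds 9.14 and 8.64), chr12:120314966-120315407 (8.34 and 10.27) and chr13:114785264-114785733 (8.23 and 9.65). Genes at these positions were not analysed here.

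The E669Q-only regions were spread unevenly over the chromosomes, a property the choice did not use. Chromosome 19 held 63 of them, 15.9% (12.4 to 19.8) of the 397 regions there that both E669Q libraries listed. Chromosome 4 held 56 (12.8%, 9.80 to 16.3), chromosome 12 held 38 (14.4%, 10.4 to 19.2), chromosome 15 held 32 of 162 (19.8%, 13.9 to 26.7) and chromosome 13 held 24 of 117 (20.5%, 13.6 to 29.0). The autosomal share was 8.47%, and the intervals of these 5 chromosomes lay above it.

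At the other end, 5 others had intervals wholly below it. Chromosome 5 held 12 of 361 (3.32%, 1.73 to 5.73), chromosome 7 held 25 of 443 (5.64%, 3.68 to 8.22), chromosome 2 held 34 of 580 (5.86%, 4.09 to 8.10) and chromosome 6 held 30 of 502 (5.98%, 4.07 to 8.42). Chromosome 21 had none among 65, which allows a share of up to 5.52% by the same interval and 4.62% by a floor of 3 counts. The intervals of the remaining 12 chromosomes included the autosomal share.

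**Figure D2:**
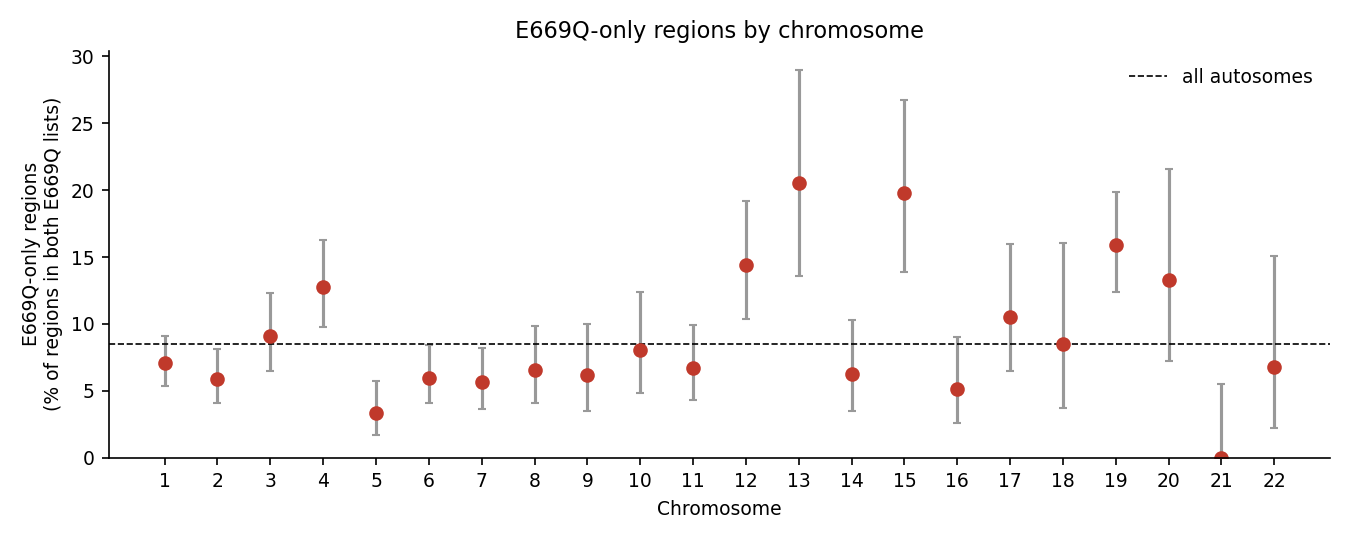
Share of the regions listed in both E669Q libraries that were E669Q-only (percent), by chromosome, with 95% Clopper-Pearson intervals as bars and the autosomal share as a dashed line. Chromosomes 13, 15, 19, 12 and 4 have intervals above the autosomal 8.47%, and those of chromosomes 2, 5, 6, 7 and 21 lie below it.

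Together chromosomes 4, 12, 13, 15 and 19, a group formed after seeing these shares, held 213 of the 554 (38.4%, 34.4 to 42.6). They held 21.1% of all regions listed in both E669Q libraries and 14.5% (20 of 138, 9.08 to 21.5) of the wild-type SLFN11-only regions. The latter interval includes 21.1%, and the share among all regions of both wild-type SLFN11 libraries is not given here. Of the 190 regions strong enough to reach every other list after scaling, 82 (43.2%) lay there. The regions of both E669Q lists and exactly 1 other leaned the same way, with 287 of 1017 (28.2%, 25.5 to 31.1) on these chromosomes, so the uneven spread was not limited to the E669Q-only regions. The median folds of the E669Q-only regions with DMSO and CPT were 5.95 and 6.73 on chromosome 4, 5.63 and 5.95 on chromosome 12, 6.08 and 5.82 on chromosome 13, 5.41 and 5.92 on chromosome 15, and 5.72 and 5.66 on chromosome 19. On the other 17 chromosomes they were 5.53 and 5.64, so the widest gap was that of chromosome 4 with CPT. In lists of equal length the chromosome 4 share of the set went from 10.1% to 14.6%. The chromosome 13 share was 4.33%, and 2.55% without the wild-type SLFN11 DMSO library.

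The local background differed between the lines on several of these chromosomes. It was measured at 2064 regions listed in all 6 libraries, none of them E669Q-only, and is given as log2 of the chromosome's median over the library's own median. On chromosome 12 (41 regions) it was −0.37 in vector DMSO, −0.42 in vector CPT, −0.35 in wild-type SLFN11 DMSO and −0.39 in wild-type SLFN11 CPT. In E669Q it was −0.01 with DMSO and −0.05 with CPT, so that both E669Q libraries lay above the other 4.

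The same order was seen on chromosomes 4 and 15. On chromosome 4 (119 regions) the values were −0.03, −0.03, −0.11 and −0.26 in the 4 other libraries and 0.25 and 0.14 in E669Q. On chromosome 15 (15 regions) they were −0.53, −0.51, −0.60 and −0.50, against −0.13 and −0.15. Neither chromosome showed an overlap between the E669Q libraries and the others.

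On chromosomes 19 and 13 the backgrounds of the groups overlapped. Chromosome 19 (39 regions) gave −0.49 and −0.33 in vector, −0.18 and 0.31 in wild-type SLFN11, and 0.29 and 0.39 in E669Q, so wild-type SLFN11 with CPT lay among the E669Q values. Chromosome 13 (29 regions) gave −0.22 and −0.29 in vector, −0.26 and −0.48 in wild-type SLFN11, and −0.23 and −0.46 in E669Q. Chromosome 5 (176 regions), which had few E669Q-only regions, gave 0.07, 0.03, 0.04 and 0.00 in the others and −0.20 and −0.14 in E669Q.

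Over all 22 chromosomes the background in both E669Q libraries was above all 4 others on 5 (22.7%), namely 3, 4, 12, 15 and 21, and below all 4 on 4 (18.2%), namely 5, 6, 7 and 11. Across the 22 chromosomes the share of E669Q-only regions went with the median within-region E669Q background minus the mean of the other 4 (Pearson r = 0.558, Spearman rho = 0.587). Without chromosome 13, left out after seeing the data, r was 0.762 and rho 0.749. By summit pileup at the same regions the relation was weaker, with r = 0.424 and rho = 0.406, and 0.674 and 0.591 without chromosome 13. These are descriptions over chromosomes measured in the same libraries. Chromosome 21 had a raised background (−0.06 and 0.06 in E669Q against −0.29 to −0.17) and no E669Q-only region.

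By summit pileup, on the same scale, the order of the libraries differed on some chromosomes. Both E669Q libraries were above all 4 others on 4 of 22 chromosomes (18.2%), namely 4, 12, 15 and 19, and below all 4 on 2 (9.09%), namely 5 and 6. On chromosome 19 the pileup was 0.10 and 0.26 in E669Q, −0.65 and −0.29 in vector, and −0.42 and 0.00 in wild-type SLFN11, so that the groups did not overlap. On chromosome 21 it was −0.11 and −0.15 in E669Q, against −0.29 and −0.14 in vector and −0.23 and 0.13 in wild-type SLFN11, so that they did. By both measures the E669Q libraries were above the others on chromosomes 4, 12 and 15 and below them on chromosomes 5 and 6. More copies of a chromosome and more open chromatin along it cannot be told apart in these lists, and the part of the background in the number of E669Q-only regions was not tested.

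**Figure D3:**
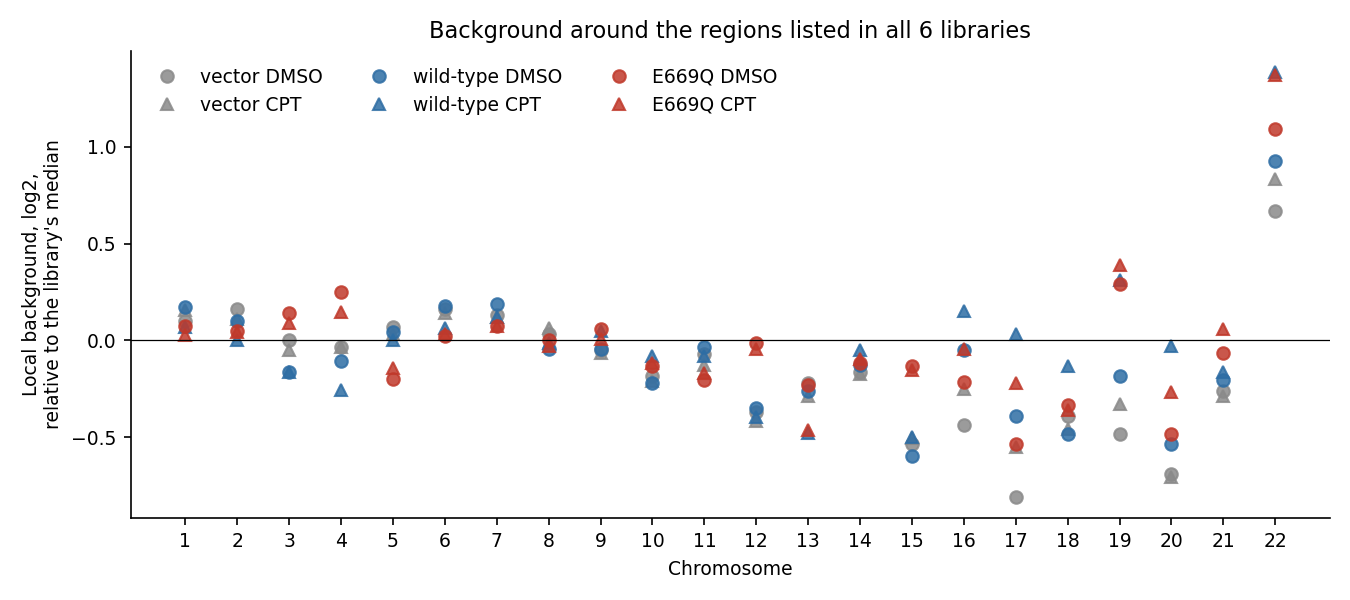
Local background by chromosome at regions listed in all 6 libraries, as log2 relative to each library's own median, with circles for DMSO, triangles for CPT and 1 colour per line. On chromosomes 4, 12 and 15 both E669Q libraries lie above the other 4, and on chromosome 5 both lie below them.

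**Figure D4:**
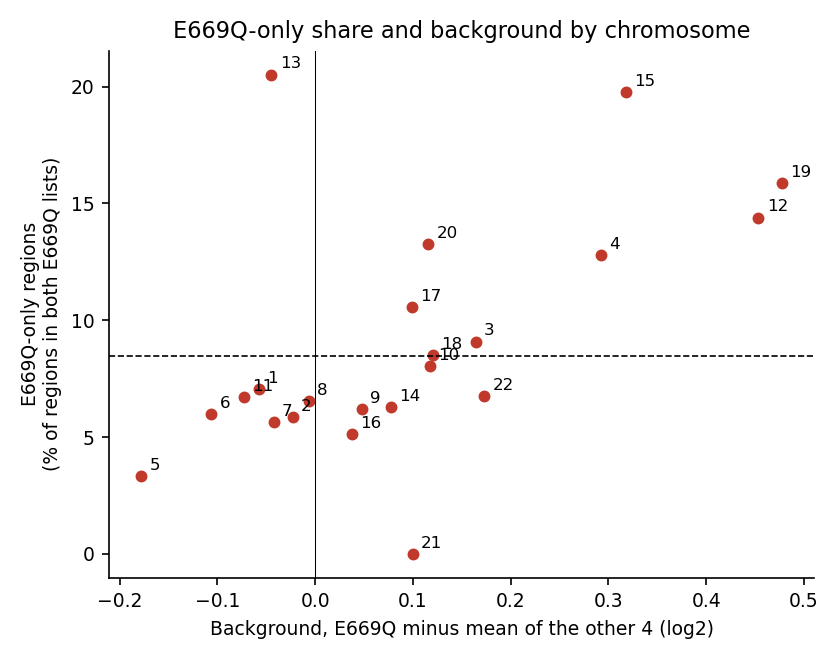
Share of regions listed in both E669Q libraries that were E669Q-only (percent, vertical axis) against the E669Q background minus the mean of the other 4 libraries (log2, horizontal axis), 1 point per chromosome, with the autosomal share dashed. Chromosomes 12, 15 and 19 lie to the upper right, chromosome 5 to the lower left, and chromosome 13 has a high share at −0.04.

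The spacing within chromosomes was measured for the E669Q-only regions alone and is a description. The median distance to the nearest other E669Q-only region was 957488 bp. Another one lay within 10 kb of 8 regions, within 100 kb of 56 (10.1%) and within 1 Mb of 286 (51.6%). Of 293 bins of 10 Mb that held a region of both E669Q lists, 210 held at least 1 E669Q-only region.

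The densest stretch was the start of chromosome 19. The first 10 Mb bin there held 27 E669Q-only regions of 134 (20.1%) listed in both E669Q libraries. The densest 1 Mb window, chr19:862183-1747963, held 7 regions. Among them chr19:1407140-1407602 had folds of 8.70 with DMSO and 6.85 with CPT over 18 and 17 fragments. The narrow chr19:1542639-1542818 had folds of 8.84 and 5.09 over 13 and 8 fragments. The densest 10 Mb window, chr19:862183-10572339, held 29 regions.

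The other bins with at least 7 E669Q-only regions lay on chromosomes with a raised share and on chromosome 11. On chromosome 19 the bins from 40 to 50 Mb and from 10 to 20 Mb held 13 of 70 and 13 of 106. On chromosome 12 the bin from 50 to 60 Mb held 10 of 34 (29.4%). On chromosome 15 the bins from 40 to 50 Mb and from 60 to 70 Mb each held 7 of 24. On chromosome 4 the bins from 140 to 150 Mb and from 170 to 180 Mb held 7 of 34 and 7 of 30. These bins were picked for their counts, which are therefore a description.

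Within the E669Q line the direction of the difference between CPT and DMSO depended on the measure. Per unit of depth, the summit pileup with CPT was lower than with DMSO, with a median log2 ratio of −0.32 (−0.37 to −0.29) in the E669Q-only regions and −0.25 in all regions listed in both E669Q libraries. By the authors' fold, the median log2 ratio was 0.06 (0.01 to 0.09), against 0.08 in all of them. The fold contains a pseudocount of 1, so it rises with depth, and the DMSO library was the shallower one. The choice also bears on the pileup ratio, because a region had to be listed in both libraries. The lowest pileup was 5 fragments with DMSO and 6 with CPT, or 3.75 and 2.70 per unit of depth. Weak regions thus needed more signal per unit of depth with DMSO, which can lower the ratio. The parts of the depth difference and of this requirement in either ratio were not tested. In all 3 sets described, E669Q-only, both E669Q and all 6, the pileup ratio was negative, at −0.32, −0.25 and −0.19.

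Few E669Q-only regions changed more than 2-fold. By fold, 2 of 554 were higher with CPT and 1 was lower, while 0.566% and 0.0917% of all regions of both lists passed. By pileup per depth, 2 (0.36%) were higher and 39 (7.04%, 5.05 to 9.50) were lower, while 0.338% and 4.85% of all regions passed. The interval of the share that was lower began just above the share in all regions, and the pileups behind it are small whole numbers. The need to be listed in the shallower DMSO library bears on this share too, so the contrast is a description.

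**Figure D5:**
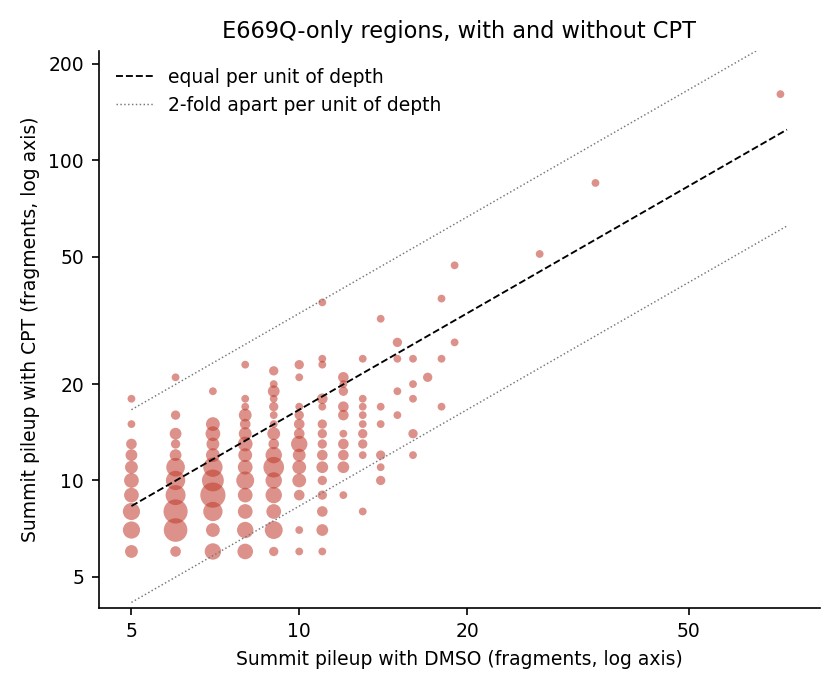
Summit pileup of the 554 E669Q-only regions in fragments with DMSO (horizontal, log axis) and with CPT (vertical, log axis). Larger points hold more regions, the dashed line marks equal pileup per unit of depth and the dotted lines a 2-fold difference. Most regions lie at the low end and below the dashed line (medians 8 and 10 fragments), 39 lie more than 2-fold lower and 2 more than 2-fold higher.

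The 5 regions with the largest rise in fold with CPT began from few fragments. On chromosome 4, chr4:167501209-167501694 went from a fold of 4.58 over 5 fragments to 10.60 over 18, and chr4:85048079-85048449 from 4.63 over 5 to 10.02 over 15. On chromosome 2, chr2:177356060-177356427 went from 4.47 over 6 to 8.66 over 21, and chr2:226466938-226467190 from 5.05 over 7 to 9.33 over 15. The remaining one, chr8:2645771-2646021, went from 4.20 over 5 to 7.85 over 13 and lay 60 bp from an interval of another list. By fold, the first 2 of these 5 passed 2-fold. By pileup per depth, chr4:167501209-167501694 and chr2:177356060-177356427 did, with log2 ratios of 1.11 and 1.07, while chr4:85048079-85048449 had 0.85. A pileup of 5 has a wide Poisson interval.

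The 5 with the largest fall in fold included 3 on chromosome 19. The largest fall, at chr3:164177659-164177811, went from 8.82 over 11 fragments to 4.39 over 6. On chromosome 19, chr19:18942439-18942783 went from 7.34 to 4.04, chr19:5686738-5687011 from 7.49 to 4.20, and chr19:39466152-39466474 from 7.30 to 4.10. The remaining one, chr9:68477130-68477404, went from 7.92 to 4.38. With few fragments and 1 library per group, no single region can be said to have changed.

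The shape of the regions varied from 125 to 1419 bp. The widest, chr8:144286699-144288117, spanned 1419 bp with folds of 6.62 and 6.32 over 17 and 21 fragments. It was followed by chr12:120907280-120908055 at 776 bp, chr8:65152559-65153316 at 758 bp, chr15:64125931-64126617 at 687 bp and chr8:126954229-126954877 at 649 bp. Among the 14 regions narrower than 150 bp, the strongest was chr6:146920026-146920161, with folds of 7.10 and 6.995 over 10 and 11 fragments. The next was chr12:122101894-122102039, with 6.26 and 8.97 over 8 and 15 fragments.

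By the choice, no interval of the other lists overlapped an E669Q-only region. The median distance to the nearest such interval was 46752 bp. Such an interval lay within 100 kb of 381 regions (68.8%), within 10 kb of 106 (19.1%) and within 1 kb of 56 (10.1%). These distances were not measured for another set of regions, so they are a description. The nearest list was wild-type SLFN11 DMSO for 348 regions, vector CPT for 76, wild-type SLFN11 CPT for 67 and vector DMSO for 63. The first was also the longest of these lists, with 11242 autosomal intervals against 5091 to 5651. The 3 regions just inside the choice were chr9:128469317-128469494, 3 bp from a wild-type SLFN11 DMSO interval, chr13:50366847-50367264, 5 bp from a vector CPT interval, and chr16:8891356-8891630, 8 bp from a wild-type SLFN11 DMSO interval.

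The 3 regions just outside were kept out by short overlaps with wild-type SLFN11 DMSO. At chr4:175443322-175444212 the overlap was 9 bp, with folds of 5.68 and 5.81 in E669Q and 5.65 in the other library. At chr1:6614324-6614914 it was 14 bp, with 6.80 and 9.18 against 5.50, and at chr3:15419603-15420143 it was 21 bp, with 5.92 and 8.33 against 5.98. Regions on either side of the choice can thus be alike in strength.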

How the data were processed

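ATAC-seq gave 6 libraries, 1 per group, grouped by the labels. Per the submitters' processing notes, the hg19 build was used with MACS2 2.1.2, Picard 2.9.2, SAMtools 1.8, Bowtie2 2.2.6 and Trimmomatic 0.39; the sources used here do not give the settings. The peaks come as 1 list per library. Each deposited peak carries a fold enrichment at its summit, a ratio over local background given by the authors. Significance was deposited on the −log10 scale, as a q-value beside the p-value of every entry. The score and the summit offset were also deposited by the authors.

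From the files, intervals were merged where they overlapped by at least 1 bp. Whole summit pileups and local backgrounds were solved from fold and −log10 p (pseudocount 1, tolerance 0.001), which succeeded for 98.6% to 99.3% of entries per list. Depth was the lowest background divided by its step, 1 fragment in a 10 kb window. The procedure was tested on simulated data. Distances, bins and coordinates are 1-based on hg19. Shares carry Clopper-Pearson intervals, medians binomial order-statistic intervals and pileups exact Poisson intervals. With 1 library per group no test was made.

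Named regions were the 10 of at least 150 bp, and the 5 narrower ones, with the highest lower-of-2 fold; the 5 widest; the 5 largest and 5 smallest fold ratios of CPT over DMSO; the densest windows; and the 3 nearest the limits of the choice on each side. The members and lists were chosen with earlier results of these data known. Genes and sequences were planned but not analysed here. Alternatives changed the list length, thresholds, merging distance, overlap rule and the libraries used. Software was matplotlib 3.10.9, scipy 1.17.1, pandas 2.3.3, numpy 2.4.6 and Python 3.11.15.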

Additional observations from a re-analysis of the deposited data

Results flagged for a closer look

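Chromosome X lay outside the autosomes used for the choice, and the same choice there gave 13 regions listed in both E669Q libraries and no other. They were 7.39% (3.99 to 12.3) of the 176 regions listed there in both E669Q libraries.

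On chromosomes 3 and 4 the local background lay above vector in E669Q and below it in wild-type SLFN11, under DMSO and under CPT. The values are medians of log2 differences within the same regions, so they differ from differences between the medians given above. On chromosome 4 E669Q minus vector was 0.29 with DMSO and 0.20 with CPT, and wild-type SLFN11 minus vector was −0.10 and −0.16. E669Q exceeded wild-type SLFN11 there by 0.32 with DMSO and by 0.39 with CPT. On chromosome 3 E669Q exceeded wild-type SLFN11 by 0.19 with DMSO and by 0.21 with CPT. Its excess over vector was small there, at 0.04 with DMSO and 0.04 with CPT. Wild-type SLFN11 minus vector was −0.12 and −0.10. By summit pileup, E669Q minus vector on chromosome 3 was −0.02 with DMSO and 0.07 with CPT. With 1 library per group these differences were not tested.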

How the results depend on the processing

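Of 69 alternative values, 54 stayed near the value reported, 13 moved and 2 changed sign. The number of E669Q-only regions, 554, was 206 in lists of equal length, 134 with a −log10 q of at least 5 asked of the E669Q lists, 1326 where the E669Q DMSO list alone was enough and 3066 where the E669Q CPT list alone was enough. Leaving out 1 of the other 4 libraries gave 623 to 1332, the latter without wild-type SLFN11 DMSO. With a −log10 q of at least 5 in all lists it was 406, and 134 of those were among the 554. The wild-type SLFN11-only number was 78 at that threshold. The vector-only number was 13 there and 168 in lists of equal length. The chromosome 4 and chromosome 5 shares of the set were 14.6% and 4.37% in lists of equal length, and the chromosome 13 share was 2.55% to 4.17% with 1 library left out. The median log2 ratio of CPT over DMSO turned from 0.06 to −0.32 by pileup per depth and to −0.016 in the 134 regions with a −log10 q of at least 5 in both lists. Ranks among pairs under alternatives were added after seeing the data: first in lists of equal length and 6 with the threshold on the E669Q lists. No paired analysis was possible because the labels give no replicate numbers and, at the E669Q-only regions, the vector and wild-type SLFN11 lists hold no values to pair by line. Relative depth was lowest in the vector libraries and in wild-type SLFN11 CPT, at 1.00 to 1.09. The part of depth in what those lists lack was not tested.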

Other observations

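A few E669Q-only regions, picked after their values were seen, had high pileups over a high background. At chr10:42392246-42392374 the pileup was 73 fragments with DMSO and 161 with CPT, with folds of 2.91 and 2.79. At chr16:46403607-46403778 it was 34 and 85, with folds of 2.88 and 2.86, and at chr17:22247068-22247217 it was 27 and 51, with folds of 5.21 and 4.59. The first lay 368 bp from an interval of wild-type SLFN11 with DMSO.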
